A study of Rattus norvegicus with 17 samples.

Results

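A set of 7 phospholipase A2 genes was followed in the colon mucosa of colitis-prone rats fed a diet rich or poor in calcium: Pla2g7, Pla2g2a, Pla2g4a, Pla2g5, Pla2g6, Pla2g10 and Pla2g1b. Their probes were found by gene name among the array's non-control probes, which gave 8 of 41012 probes and 7 of 35535 gene names. Pla2g5 had 2 probes and each other gene had 1. Pla2g7 led to the choice of this family because, of all named genes, it had the smallest p for the difference between the diets, so its difference is given here as a description, with no test.

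The animals were 17 females, 8 to 10 weeks old at the start, of an inbred strain labelled Fisher 344, and all of them, the controls included, carried the HLA-B27 and β2-microglobulin transgenes. The human HLA-B27 molecule, expressed together with its light chain β2-microglobulin, makes rats prone to spontaneous colitis. The high calcium group of 8 rats ate a purified Western-type diet with 120 mmol calcium per kg, in which calcium replaced glucose, and the low calcium group of 9 rats ate the control version with 30 mmol per kg. No rats without the transgenes were analysed here, so the diets were compared only in animals at risk of colitis. RNA from scrapings of each rat's colon was labelled with the red dye Cy5 and hybridised to its own array beside a Cy3-labelled pool of all animals. Each value below is the log2 ratio of a rat to that pool, where 0 means equal signals after normalisation. Every array had the same dye orientation, so a probe's distance from 0 can hold a dye effect and is not read as a level. Each difference is high minus low calcium on that log2 scale, in which a dye effect common to all arrays cancels.

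Phospholipases A2 cut the fatty acid from the middle position of a membrane phospholipid and leave a lysophospholipid. Where that fatty acid is arachidonic acid, it feeds the cyclooxygenases and lipoxygenases that make prostaglandins, thromboxanes and leukotrienes. The family holds cytosolic, calcium-activated enzymes, small secreted enzymes, calcium-independent enzymes, and platelet-activating factor acetylhydrolases. Pla2g7 belongs to the last class: it is secreted, travels in plasma on lipoproteins, is made largely by macrophages, and removes the acetyl group of platelet-activating factor, a lipid that recruits and activates leukocytes. In the gut, Pla2g2a is known as an antibacterial product of Paneth cells.

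The promoters shown are those of Pla2g7 and of the pair of tested members with the smallest unadjusted p values. Neither member of that pair passed after adjustment. All 7 genes had an entry in the RefSeq promoter table of build GRCr8. Each sequence is the 250 bases before the annotated start, read 5′ to 3′ on the gene's strand, which is the minus strand of chr9:24901748-24901997 for Pla2g7, of chr13:64572353-64572602 for Pla2g4a and of chr12:46812654-46812903 for Pla2g1b. Capitals mark a motif found by a search of both strands.
Pla2g7: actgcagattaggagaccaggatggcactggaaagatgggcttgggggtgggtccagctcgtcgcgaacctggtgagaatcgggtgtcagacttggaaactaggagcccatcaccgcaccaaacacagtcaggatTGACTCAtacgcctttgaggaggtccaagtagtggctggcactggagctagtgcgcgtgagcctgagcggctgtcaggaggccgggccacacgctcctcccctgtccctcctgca
Pla2g4a: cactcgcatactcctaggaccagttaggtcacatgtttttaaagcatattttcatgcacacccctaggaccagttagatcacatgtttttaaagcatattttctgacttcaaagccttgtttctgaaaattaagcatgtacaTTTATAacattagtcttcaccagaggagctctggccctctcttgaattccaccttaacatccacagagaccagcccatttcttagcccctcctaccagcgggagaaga
Pla2g1b: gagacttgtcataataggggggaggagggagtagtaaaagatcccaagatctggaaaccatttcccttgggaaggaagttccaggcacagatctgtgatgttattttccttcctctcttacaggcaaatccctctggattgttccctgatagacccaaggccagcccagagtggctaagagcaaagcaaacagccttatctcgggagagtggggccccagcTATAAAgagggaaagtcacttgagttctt
The search used TATAAA for the TATA box and TGANTCA for the factor AP-1. It also used CCAAT for the box of that name, GGGCGG for the GC box, GAGGAAGT for the myeloid factor PU.1 and TTGCNNAA for C/EBP factors. None of these patterns contains another. The Pla2g7 window held 1 match to TGANTCA, 115 bases before the start, and 6.34% of 33469 rat promoters hold that pattern in a window of this length. TATAAA is held by 12.9% of the promoters. The Pla2g1b window held it 29 bases before the start, and the Pla2g4a window held it on the opposite strand, where it reads as TTTATA, 108 bases before the start. No other match was found in these windows. The GC content was 60.0% for Pla2g7, 48.8% for Pla2g1b and 42.4% for Pla2g4a, against a median of 51.2% over all promoters in the table. These matches describe the letters only, and no binding was measured.

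Of 41012 probes, 27094 were tested because their Cy5 signal stood clear of background on 8 arrays or more, all 8 member probes among them. In limma's test with Benjamini-Hochberg adjustment over these probes, 0 probes (0%) had an adjusted p under 0.05 and 2381 (8.79%) had an unadjusted p under 0.05. Of the latter, 1070 (3.95% of the probes tested) were higher and 1311 (4.84%) lower at high calcium. High calcium rat 3 and low calcium rat 16 weighed on these counts: without rat 3 the adjusted count was 193 probes (0.712%), and without rat 16 it was 38 (0.14%). Each member probe lay well above background on all 17 arrays and none was saturated, except that the second Pla2g5 probe lay well above background on 7 of the 8 high calcium and 8 of the 9 low calcium arrays. Each array is counted as a separate animal: the labels give each a replicate number of its own, used here as the rat's number. In scrapings of a mixed tissue, fewer cells of a type and less RNA per cell cannot be told apart.

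Pla2g7 lay lower at high calcium. Its log2 ratio to the pool had a lowest value of -0.31, a median of -0.055 and a highest of 0.031 in the 8 high calcium rats. In the 9 low calcium rats the lowest was -0.043, the median 0.33 and the highest 0.46. The groups overlapped through a single animal: 8 of the 9 low calcium rats lay above every high calcium rat, and low calcium rat 16 lay at -0.043, among the high calcium values. High calcium rats averaged -0.089 ± 0.11 (SD, n = 8), and low calcium rats 0.29 ± 0.16 (SD, n = 9).

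**Figure D1:**
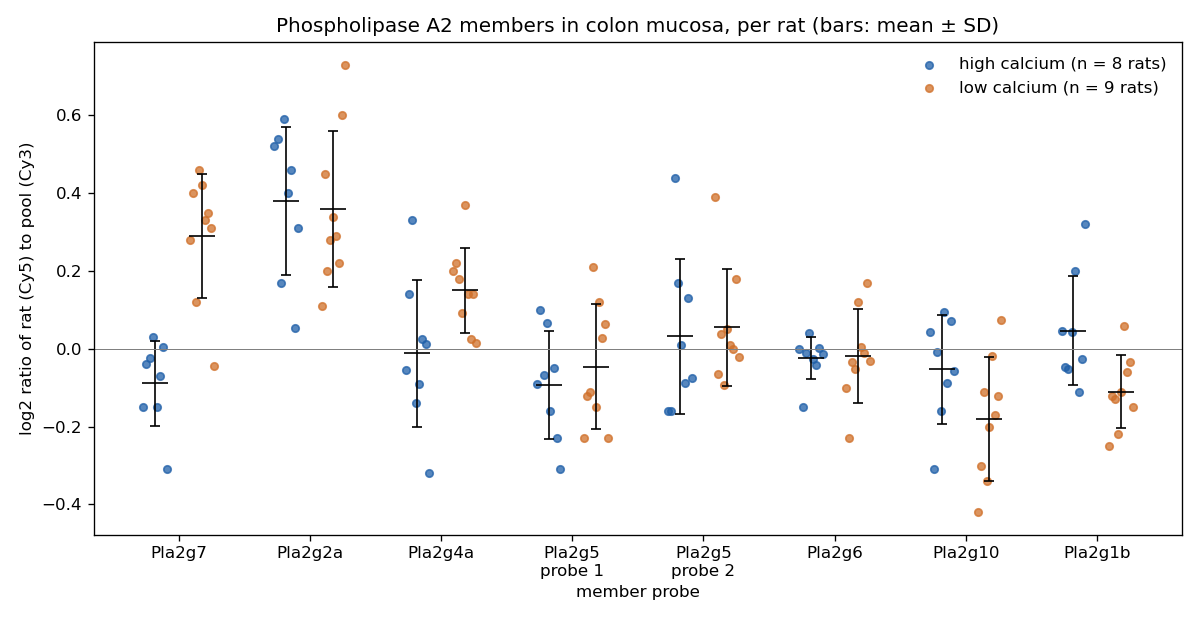
Log2 ratio of each rat (Cy5) to the common pool (Cy3) for the 8 member probes, blue for 8 high calcium rats and orange for 9 low calcium rats, with black bars for mean ± SD. Pla2g7, chosen by the difference between these groups, is the member whose groups overlap through 1 low calcium rat, at -0.043. The groups of the other 7 probes overlap through more than 1 rat. For Pla2g4a, 5 of the 8 high calcium rats lie below every low calcium rat.

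The Pla2g7 difference was -0.38 ± 0.065 (SE), with a 95% interval from -0.51 to -0.24, or 1.3-fold lower at high calcium. The gene was chosen by this difference, so its size can be too large. The interval takes no account of that choice and is not a test. The selecting value was an unadjusted p of 8.21e-06 in limma, and the next named gene, the collagenase Mmp13, had 1.06e-05. The median absolute difference over all probes tested was 0.046, and 185 probes (0.683%) had one at least as large as that of Pla2g7. The residual SD of 0.13, which limma draws towards a value common to all probes, was close to the median of 0.12 over all probes tested. The probe lies at chr9:13055358-13055417 on the minus strand of rn3, the build of the array's design. Whether it falls in coding sequence or a UTR was not analysed here.

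Slides held rats of both diets, so Pla2g7 could be set side by side within each. High minus low calcium was -0.27 on slide 1, -0.28 on slide 2, -0.48 on slide 3 and -0.48 on slide 4, with 2 rats of each diet per slide. Slide 5 held low calcium rat 1 alone, at 0.28. These values come from the contrast that chose the gene and describe it only. The smallest of them was on the slide of rat 16. With slide as a block the difference was -0.38, and over the 25 alternative settings it ran from -0.42 to -0.33. The value of -0.33 came with median centring, where its SE was 0.27, against 0.065 in the main setting. The pool channel, measured on the same spots, ran from 2094 to 2283 in the arrays of high calcium rats and from 2048 to 2334 in those of low calcium rats, so it did not separate the diets. The Cy5 signal of the rats ran from 3378 to 6567 at high and from 5955 to 8356 at low calcium before normalisation.

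**Figure D2:**
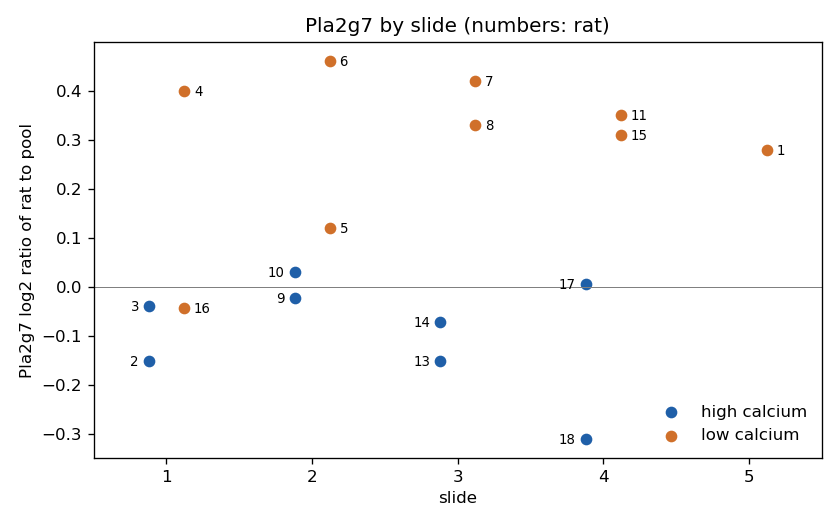
Pla2g7 log2 ratio of rat to pool (vertical axis) by array slide (horizontal axis), 1 point per rat with its number, blue for high and orange for low calcium. On slides 2, 3 and 4 each low calcium rat lies above each high calcium rat, and on slide 1 low calcium rat 16, at -0.043, lies just below high calcium rat 3, at -0.039.

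The cytosolic member is Pla2g4a, the calcium-activated enzyme that prefers arachidonic acid and supplies most of it for prostaglandin synthesis. Its log2 ratio ran from -0.32 through a median of -0.021 to 0.33 at high calcium. At low calcium it ran from 0.015 through 0.14 to 0.37, so no low calcium rat lay below 0. The groups overlapped: 5 of the 8 rats on high calcium had values under the whole low calcium group, but high calcium rat 9, at 0.33, was among the highest of all. The difference was -0.17 ± 0.07 (SE, 95% interval -0.31 to -0.021), and it did not pass limma's test (unadjusted p = 0.0271, adjusted p = 0.50). Within slides it was -0.074, -0.039, -0.29 and -0.24 on slides 1 to 4, the same sign on each. The signal behind it was low, with Cy5 values from 255 to 602. Its size depended on the processing: it was -0.21 without background correction, -0.3 with the scanner's processed signals and -0.11 with median centring, none of them passing. The probe lies at chr13:64160232-64160291 on the minus strand of rn3.

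The secreted members did not share a direction. Pla2g1b, the pancreatic enzyme that digests dietary phospholipids, had log2 ratios from -0.11 through a median of 0.0084 to 0.32 at high calcium and from -0.25 through -0.12 to 0.058 at low calcium. The upper values came from high calcium rats 18 and 13, at 0.32 and 0.2, and the other high calcium rats lay within the range of the low calcium group. The difference was 0.16 ± 0.058 (SE, 95% interval 0.039 to 0.28), which did not pass limma's test (unadjusted p = 0.0117, adjusted p = 0.40). On slides 1 to 4 it was 0.14, 0.17, 0.073 and 0.19. Beside it stand the markers of exocrine pancreas: 4 of 9 on the array were tested, all 4 were above 0 in their difference (median 0.073), 0 of 4 reached an unadjusted p under 0.05, and Cpa1, Cpb1, Cela3b, Pnlip and Amy2a3 lay too close to background to be tested. The mean log2 ratio of that list ran from -0.032 to 0.21 at high and from -0.1 to 0.12 at low calcium. Their part in the Pla2g1b value was not tested. The Pla2g1b probe lies at chr12:42268922-42268981 on the minus strand of rn3.

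Pla2g10, a secreted enzyme with high activity on phosphatidylcholine that is made by gut epithelium, had log2 ratios from -0.31 through -0.032 to 0.094 at high calcium. At low calcium they ran from -0.42 through -0.17 to 0.073. The ranges overlapped almost in full. The difference of 0.13 ± 0.068 (SE, 95% interval -0.014 to 0.27) did not pass limma's test (unadjusted p = 0.0744, adjusted p = 0.62), and it was -0.021 on slide 1 against 0.14, 0.11 and 0.15 on slides 2 to 4. The probe, at chr10:26180-26239 on the minus strand of rn3, was bright, with a Cy5 median of 19800.

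Pla2g2a, the group IIA enzyme that kills Gram-positive bacteria, ran from 0.054 through 0.43 to 0.59 at high and from 0.11 through 0.29 to 0.73 at low calcium. All 17 ratios were above 0, which cannot be a difference in level from a pool of all animals, and the groups covered the same range. The difference was 0.024 ± 0.086 (SE, 95% interval -0.15 to 0.2; limma's unadjusted p = 0.781, adjusted p = 0.96). Its probe was the 25th brightest of those tested. Its Cy5 signal of 303000 to 446000 reached 47.5% to 69.8% of the scanner's saturation value, and no spot of it was saturated. Markers of Paneth cells, a known source of Pla2g2a in the gut, differed in both directions: 2 of the 6 tested were higher at high calcium at an unadjusted p under 0.05 (the defensins Defa6, at 1.04, and Defa24, at 0.84) and 2 were lower (Lyz2, which macrophages also express, and Mmp7), with none passing after adjustment. Their list mean ran from -0.58 to 0.48 at high and from -0.3 to 0.061 at low calcium, and Defa5 was too dim to test. Their part in the Pla2g2a value was not tested, and the cells that made Pla2g2a in these colon scrapings were not identified.

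Pla2g5, a secreted enzyme of macrophages and other cells, was read by a pair of probes. The brighter ran from -0.31 through -0.078 to 0.1 at high and from -0.23 through -0.11 to 0.21 at low calcium. Its difference was -0.047 ± 0.068 (SE, 95% interval -0.19 to 0.1; limma's adjusted p = 0.89), and the groups overlapped throughout. The dimmer probe, with a Cy5 median of 109 over a local background of 41 to 54, gave -0.023 ± 0.079 (SE, 95% interval -0.19 to 0.14; limma's adjusted p = 0.96). The signs of both probes changed with the processing, so neither gives a direction. On rn3 they lie on the minus strand at chr5:157630363-157630422 and, spanning 826 bases, chr5:157631045-157631870.

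The Pla2g5 and Pla2g2a probes lie in a row of secreted phospholipase genes on chromosome 5. Probes of 5 such genes were tested there, Pla2g2c, Pla2g2d, Pla2g5, Pla2g2a and Pla2g2e in that order, over 146.6 kb of rn3, with Pla2g2a at chr5:157667072-157667131 on the plus strand. The neighbours differed by 0.063 ± 0.05 (SE) for Pla2g2c, 0.0092 ± 0.075 for Pla2g2d and -0.0057 ± 0.047 for Pla2g2e. None of the 6 probes passed, with limma's adjusted p from 0.77 to 0.98, and their differences lay between -0.047 and 0.063.

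Pla2g6 is the calcium-independent enzyme, which remodels membrane phospholipids in most cells. Its log2 ratio ran from -0.15 through -0.012 to 0.04 at high and from -0.23 through -0.031 to 0.17 at low calcium. The high calcium rats lay within the low calcium range. The difference of -0.0064 ± 0.048 (SE, 95% interval -0.11 to 0.094; limma's adjusted p = 0.98) had the narrowest interval of the members, and its sign changed with the processing. The probe lies at chr7:117302475-117302534 on the minus strand of rn3.

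Across the members, then, 0 of the 6 genes open to test passed after adjustment. At an unadjusted p under 0.05 stood Pla2g4a, lower, and Pla2g1b, higher, where 8.79% of all probes reached that level. Adjusted p values of the 6 genes ran from 0.18 to 1 over the alternative settings.

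**Figure D3:**
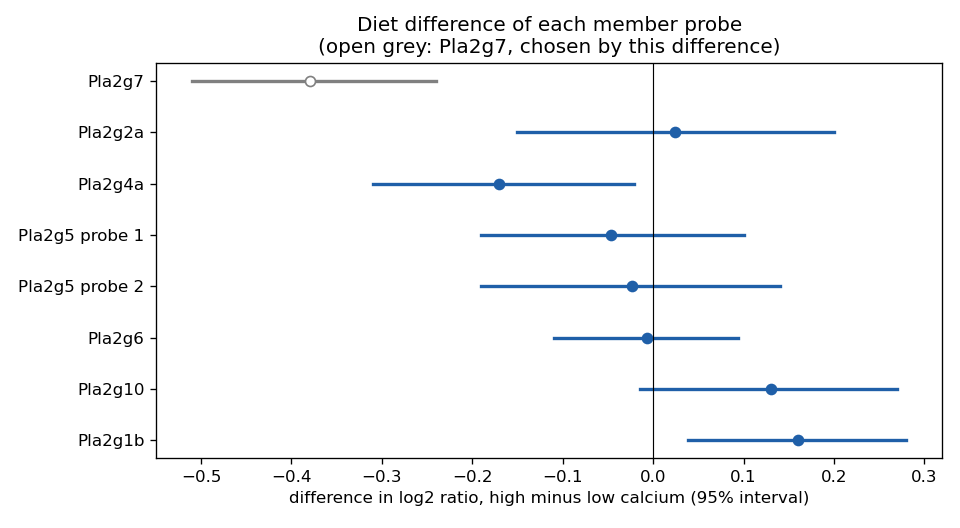
Difference in log2 ratio, high minus low calcium, for each member probe, with its 95% interval from limma. Pla2g7 (open grey) was chosen by this difference, and its interval takes no account of that choice. The intervals of Pla2g4a and Pla2g1b exclude 0 before adjustment, on opposite sides, and the other 5 probes' intervals hold 0.

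The other members were next set against Pla2g7 within the diets, as deviations of each rat from its diet's mean. The choice ranked Pla2g7 by its p among all named genes, the other members included, and so used the spread of its own deviations. It did not use how the members varied together between rats. Of the 7 relations computed, none passed Benjamini-Hochberg adjustment of its permutation p (100000 permutations within diet, two-sided). The brighter Pla2g5 probe had the closest relation, with Pearson's r = 0.57 (permutation p = 0.022, adjusted 0.13) and Spearman's rho = 0.43 (permutation p = 0.098, adjusted 0.34) over 17 rats. Without low calcium rat 16 and high calcium rat 18, the rats farthest out in Pla2g7, r was 0.34. For Pla2g10, r was -0.5 (permutation p = 0.056, adjusted 0.13) and rho -0.48 (permutation p = 0.066, adjusted 0.34), with r = -0.36 without those rats. For Pla2g4a, r was 0.47 (permutation p = 0.044, adjusted 0.13) and rho 0.38 (permutation p = 0.15, adjusted 0.34). It was 0.12 without those rats and so rested on them. The remaining 4 probes had r between -0.32 and 0.16. A slide held at most 4 rats, too few for a relation within it. With diet and slide both taken out, r was 0.59 for Pla2g5, -0.63 for Pla2g10 and 0.48 for Pla2g4a.

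The enzymes that act on the same lipids were counted from lists of genes, each represented by its brightest probe. Over all 23143 genes or names tested, 12578 were higher and 10565 lower at high calcium, 9.02% had an unadjusted p under 0.05, and the median difference was 0.0075. In each list below, 0 genes passed after adjustment over all probes. All values are differences in log2 ratio ± SE over the 8 and 9 rats.

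In the platelet-activating factor pathway, 3 of 14 tested genes were higher and 11 lower, with a median of -0.045. At an unadjusted p under 0.05 were 2 genes, both lower. Lpcat2, the inflammatory enzyme that makes platelet-activating factor from its lyso form, had -0.24 ± 0.068 (limma's adjusted p = 0.24). Ptafr, the receptor of the lipid, had -0.17 ± 0.07 (limma's adjusted p = 0.48). The steady-state enzyme Lpcat1 had 0.093 ± 0.063. The intracellular acetylhydrolases differed in both directions. Of their catalytic subunits, Pafah1b3 had 0.087 ± 0.064 and Pafah1b2, named after its value was seen, had -0.091 ± 0.045 (limma's adjusted p = 0.58). Pafah2 had -0.021 ± 0.057, with a sign that changed under 3 of 7 other scalings. With median centring 6 of the 14 genes were lower, so the count of 11 depended on the centring.

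Among 15 tested genes listed as other phospholipases A2 and related lipases, 9 were higher and 6 lower (median 0.0092). Pla1a, a phospholipase A1 that acts on phosphatidylserine, had -0.32 ± 0.088 (limma's adjusted p = 0.21), and Pla2g15, the lysosomal enzyme, had -0.17 ± 0.057 (limma's adjusted p = 0.35). Those were the 2 with an unadjusted p under 0.05. Pnpla7, a lysophospholipase, had -0.087 ± 0.059.

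Lysophospholipids are the other product of these enzymes. Of 13 tested genes that handle or sense them, 6 were higher and 7 lower (median -0.013), and 4 were lower with median centring or in the series matrix. Mboat2, which puts a fatty acid back on lysophospholipids, had 0.19 ± 0.069, and the lysophosphatidic acid receptor Lpar3 had -0.16 ± 0.065, each with an unadjusted p under 0.05. Enpp2, or autotaxin, which makes lysophosphatidic acid, had -0.1 ± 0.083.

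Downstream of arachidonic acid, 9 of 16 tested genes were higher and 7 lower (median 0.027), and 6 had an unadjusted p under 0.05. The cyclooxygenases Ptgs1 and Ptgs2 had -0.28 ± 0.084 and -0.25 ± 0.1, and Ptges, the inducible prostaglandin E synthase, had -0.49 ± 0.18. Hpgd, which breaks prostaglandins down, had 0.37 ± 0.12. None of these 4 passed (limma's adjusted p from 0.27 to 0.45). Another prostaglandin E synthase, Ptges2, named after its value was seen, had 0.018 ± 0.061. Tbxas1, or thromboxane synthase, at -0.19 ± 0.066, and Acsl4, which activates arachidonic acid, at -0.2 ± 0.076, complete the 6 and were named after their values were seen. On the leukotriene side, Alox5 had 0.036 ± 0.061 and its activating protein Alox5ap had -0.082 ± 0.062.

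Proteins that bind or control phospholipases A2 were lower in 7 of 10 tested genes (median -0.055), or in 4 of 10 with median centring. Of the 7, 4 had an unadjusted p under 0.05. Annexin A1, known as an inhibitor of these enzymes, had -0.34 ± 0.15 and annexin A5 had -0.33 ± 0.1. Vimentin, a filament protein known to bind Pla2g4a, had -0.26 ± 0.081. Annexin A2, named after its value was seen, had -0.23 ± 0.1. The receptor Pla2r1 was matched to no probe and has no value here. Among lipoprotein carriers and receptors for oxidised lipid, 5 of 8 were lower (median -0.033). The macrophage scavenger receptor Msr1 had -0.31 ± 0.087 and Apoe had -0.23 ± 0.1, both with an unadjusted p under 0.05. Apob, a protein of plasma lipoproteins, had 0.14 ± 0.075. Apoa1 and Olr1 were too dim to test.

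**Figure D4:**
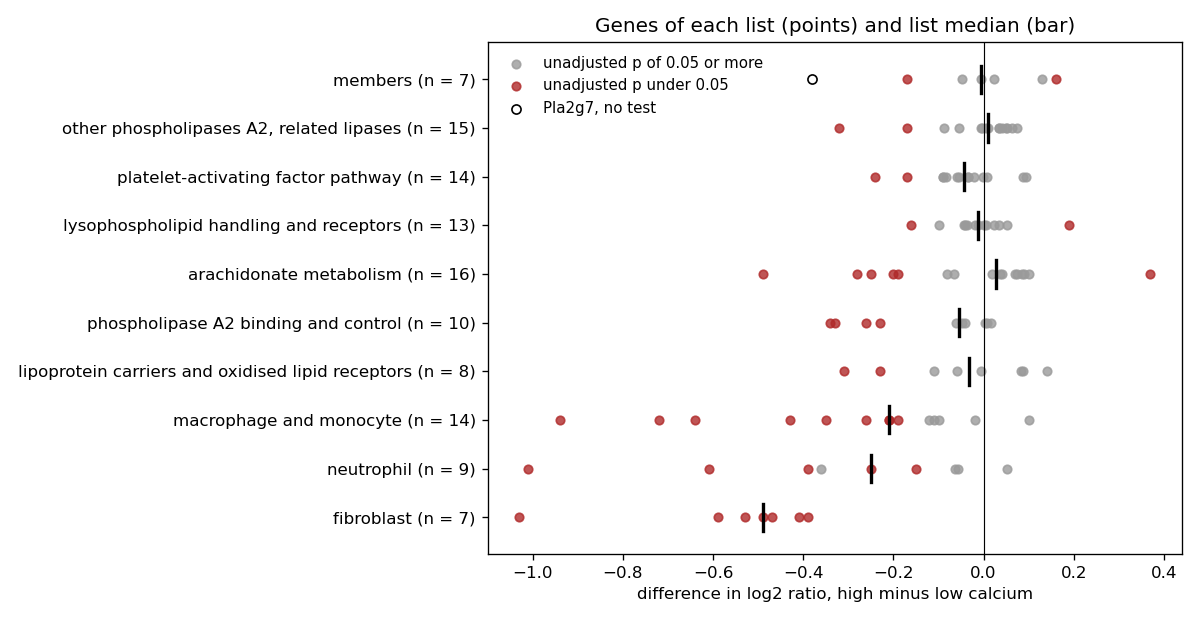
Difference in log2 ratio, high minus low calcium, of each tested gene (points) in the member, pathway and 3 marker lists, with a bar at the list's median; red marks an unadjusted p under 0.05 in limma, and Pla2g7 is open because no test was made of it. The pathway medians lie between -0.055 and 0.027, while those of the macrophage, neutrophil and fibroblast markers lie at -0.21, -0.25 and -0.49.

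The macrophage, neutrophil and fibroblast marker lists had medians below 0, the direction of the Pla2g7 difference. Macrophage and monocyte markers were lower at high calcium in 13 of 14 tested genes, 9 of them at an unadjusted p under 0.05, with a median of -0.21; Cd163 was too dim to test. The mean log2 ratio of that list ran from -0.58 to 0.064 in high and from -0.15 to 0.3 in low calcium rats. It was lowest of the low calcium group in rat 16, the rat whose Pla2g7 lay among the high calcium values, and lowest of all in high calcium rat 18, which also had the lowest Pla2g7. Neutrophil markers were lower in 8 of 9 (5 at an unadjusted p under 0.05, median -0.25; Mpo and Fpr1 were too dim to test), and their list mean ran from -0.55 to 0.3 at high and from -0.21 to 0.47 at low calcium. Rats 16 and 18 held the same places in the neutrophil and T cell lists: rat 16 was lowest of the low calcium group, at -0.21 and -0.14, and rat 18 lowest of all, at -0.55 and -0.28. Rat 16 was not lowest of its group in the fibroblast, B and plasma cell, mast cell or smooth muscle lists, at -0.094, 0.038, 0.1 and -0.036. Of these lists, rat 18 was lowest of all in the fibroblast list only. Fibroblast markers were lower in 7 of 7, all at an unadjusted p under 0.05 (median -0.49), with list means from -0.85 to 0.24 against -0.14 to 0.54.

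Epithelial markers lay the other way. Absorptive markers were higher in 9 of 10 (1 at an unadjusted p under 0.05, median 0.16), and goblet cell markers in 4 of 5 (3 at that level, median 0.26). Their list means ran from -0.28 to 0.41 at high and from -0.47 to 0.18 at low calcium for absorptive cells, and from -0.14 to 0.38 against -0.27 to 0.07 for goblet cells. T cell markers were lower in 6 of 7, B and plasma cell markers in 2 of 4, and mast cell markers in 4 of 7. The T cell, B cell, mast cell and smooth muscle lists had medians of -0.075, -0.1, -0.03 and -0.088. The part of any of these cells in the Pla2g7 difference was not tested. In a check of the labelled tissue, colon mucosa, all 10 absorptive markers stood clear of background and were tested. Of 41012 probes, 27094 did so too, so the check is weak and does not tell colon from other gut tissue.

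The genes most like Pla2g7 between rats were found within the diets, by Pearson's r of the 17 deviations, among 11512 named genes. The median r of those genes was 0.07 and the middle 95% of them lay between -0.43 and 0.6. The closest were Hebp1 (r = 0.88), Fxyd5 (0.86), Myo1f (0.86), Adprm (0.85), Apol3l1 (0.85), Slamf9 (0.83), S100a4 (0.83), C1h16orf54 (0.83), Prnp (0.82) and Dusp3 (0.82). Hebp1 is a haem-binding protein, Myo1f a myosin of leukocytes, and S100a4 a calcium-binding protein of fibroblasts and macrophages. All values share the arrays and their normalisation, and r is given as a description. Rats 16 and 18 carried much of it: without them r for the 10 genes was 0.54 to 0.7, and 1 of the 10 was among the closest 10. By Spearman's rho, at 0.51 to 0.71 for these genes, 0 of them were among the closest 10.

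**Figure D5:**
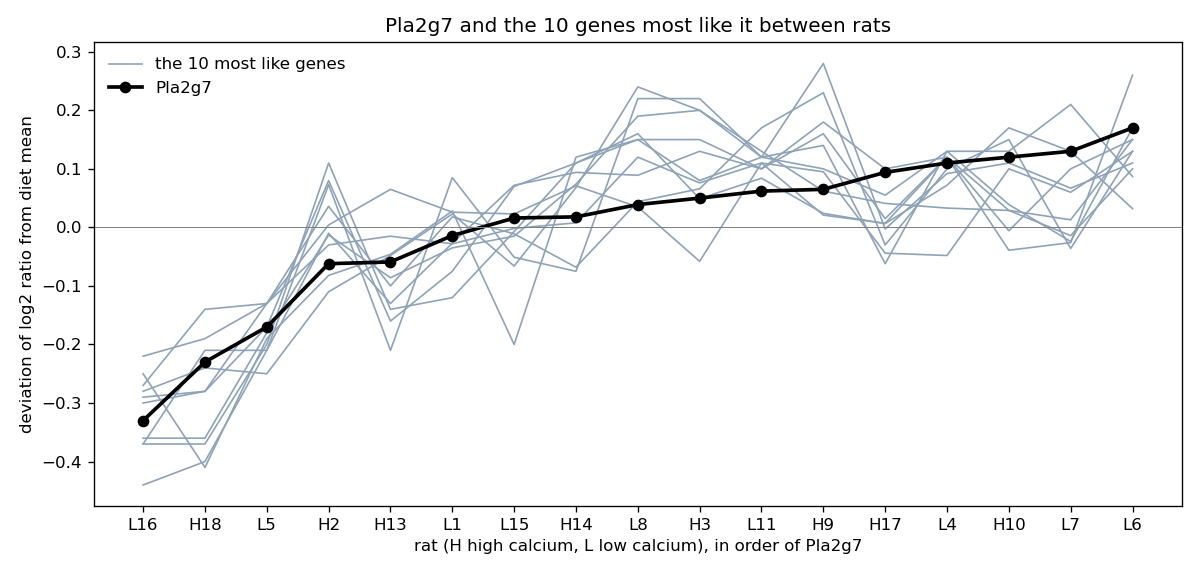
Deviation of the log2 ratio from the diet mean (vertical axis) for Pla2g7 (black) and its 10 most like genes (grey lines) in 17 rats ordered by Pla2g7, H for high and L for low calcium. In low calcium rats 16 and 5 and high calcium rat 18, where Pla2g7 is lowest, each grey line lies below its diet mean; over the other rats the grey lines do not keep to the order of Pla2g7.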

How the data were processed

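The deposited files of 17 arrays hold Cy5 and Cy3 spot intensities that, per the file headers, the authors extracted from scans with Agilent Feature Extraction 9.5.1.1 (9.5 per the submitters' processing notes). The deposited series matrix holds log2 values, and how they were made is not given in the sources used. They tracked log2 of Cy5 over Cy3 without background correction (r = 0.98 across genes and arrays), have a median of 8.76 on every array, and an offset that stays unknown; they served as an alternative.

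Intensities were corrected by normexp (offset 50) and loess in limma 3.58.1 (R 4.3.3). Spots flagged as outliers were set to missing, control spots dropped, and 43379 spots averaged to 41012 probes. Probes whose Cy5 signal stood well above background on 8 arrays or more (27094) were tested with lmFit and eBayes, with Benjamini-Hochberg adjustment over all of them. Median Cy5 signal was 146.8 to 180.8 per array and 60% to 71.9% of probes lay well above background; the number of arrays limits precision. Loess centres each array, so a shift common to most genes would be removed. On simulated arrays of 26961 independent probes, limma called 94% of the 67 probes shifted by 0.4, 100% of those shifted by 0.8 or 1.6, and 18 unchanged ones. Real genes are not independent, and the simulation held no rat or slide effect shared between probes. Its shares need not hold for the real arrays.

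The RefSeq table of GRCr8 gave current names by accession (10735 probes), symbol (5577) or synonym (3730), and 20970 kept the array's name. Synonyms took the list entries Lyz1, Fcgr3 and Pla2g16 to Lyz2, Fcgr2a and Plaat3. Positions are those of the array's rn3 design. Slides were read from the arrays' headers.

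Besides the members, the genes named are the 3 largest absolute differences of each pathway list, 10 pathway genes listed by name, the 10 closest to Pla2g7, and those said to be named after their values were seen; marker lists were also listed. The members and lists were chosen with earlier results of these data known. Alternatives covered background, normalisation, dim probes, slide, array weights, the series matrix, and leaving out each rat.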

Additional observations from a re-analysis of the deposited data

Results flagged for a closer look

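Of 104 groups searched (52 genes or probes in 2 diets), 4 had a rat far from the others of its diet by Dixon's ratio, where chance gives about 1 in 20. High calcium rat 3 lay at -0.15 for Pla2g6, with the next rat at -0.042. High calcium rat 18 lay at -0.72 for Pla1a, with the next at -0.31, and at -0.5 for Prnp, with the next at -0.17. Low calcium rat 6 lay at 0.4 for Mboat2, with the next at 0.1.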

How the results depend on the processing

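Pla2g7 was chosen by its difference and every setting draws on the same rats, so its values here describe it only. The Pla2g7, Pla2g4a, Pla2g10 and Pla2g1b differences kept their sign in all 25 alternative settings, and none of the 6 tested members passed in any. With median centring the SEs of these 4 differences were 0.27, 0.16, 0.27 and 0.18, against 0.065, 0.07, 0.068 and 0.058 in the main setting. The number of probes at an unadjusted p under 0.05 was 779 with median centring and 3788 with array weights, and 1588 to 3082 when 1 rat was left out; the number past adjustment was 0 to 193 when 1 rat was left out (193 without rat 3, 38 without rat 16) and 0 otherwise. Signs turned for small differences: Pla2g2a was -0.014 with Cy5 alone and -0.0067 with slide as a block; the brighter Pla2g5 probe was 0.025 with median centring; the dimmer was 0.012 without background correction, 0.11 with the scanner's processed signals, 0.052 in the series matrix and 0.02 with slide as a block; Pla2g6 was 0.019, 0.051, 0.053, 0.04, 0.027 and 0.0073 without background correction, with median centring, processed signals, Cy5 alone, the series matrix and array weights. Leaving out 1 rat gave -0.0067 to 0.071 for Pla2g2a, -0.08 to 0.02 for the dimmer Pla2g5 probe and -0.032 to 0.018 for Pla2g6. The cause was not tested. The run without rats 16 and 18 for the genes most like Pla2g7 was chosen after seeing the data. No paired analysis was possible because the diets share no rat numbers. The dimmest member was the second Pla2g5 probe, with a Cy5 median of 109.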
